A study of Homo sapiens with 14 samples.

Results

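Crosslinks of the tRNA methyltransferase TRMT2A were compared between iCLIP and miCLIP (methylation-iCLIP) in HEK293 cells, a human embryonic kidney cell line. The comparison rested on 5 of the 14 libraries of the series, chosen by their labels: 3 of iCLIP and 2 of miCLIP. The iCLIP libraries came from untransfected cells irradiated with UV light, from which endogenous TRMT2A was precipitated with an antibody to the protein itself. The miCLIP libraries came from cells harvested 24 h after transfection with a FLAG-tagged TRMT2A mutant (its catalytic base replaced), precipitated with an antibody to the tag and without UV light. Neither group received the base analogue 5-fluorouracil, which the other libraries from HEK293 cells did. UV light, antibody, endogenous or overexpressed enzyme and mutation therefore all separated the same libraries and cannot be told apart. The study calls its replicates biological, while the labels name no separate cultures, so that p-values here measure the spread between these libraries.

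TRMT2A places a methyl group on the uridine at position 54 of tRNAs, in the T loop near the 3′ end of the molecule, and forms a covalent bond with that base while it does so. A mutant that cannot release the base stays bound to it, which is what miCLIP collects, whereas UV light joins the enzyme to whatever bases it touches. Reverse transcription tends to end at the peptide left on the RNA, and the counted position is the one next to the end of the cDNA. In UV iCLIP this position is, per the study, usually the crosslinked base. In catalytic crosslinking, such as miCLIP, the study states that the crosslinked base is more often copied before the cDNA ends. For such cases it predicts the base after the counted position to be the methylated one. Position 58 of many tRNAs carries 1-methyladenosine, placed by another enzyme, at which reverse transcription can also end. Initiator methionine tRNA of vertebrates has an adenosine in place of the uridine at position 54.

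The authors deposited the number of cDNAs at each genomic position. The iCLIP libraries held 17432, 7987 and 7002 counts and the miCLIP libraries 39024 and 104605, and positions with a single count made up 71.7% to 78.2% of the positions of a library. A count of 0 allows up to 428 CPM (counts relative to the library total) in the smallest iCLIP library and 28.7 CPM in the larger miCLIP library. These limits, like the intervals on shares given here, cover counting error only. Counts were assigned to 542 tRNA genes found by sequence in GRCh37, each with its leader and trailer of 50 nt, to annotated genes, or to regions without a gene. Only uniquely mapping reads had been kept, so tRNA genes with identical copies could hold few or no counts in either method.

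The T arms of the tRNAs on which the results turn are shown first, from position 48 to 65 in the 5′ to 3′ direction, read from GRCh37. Capitals mark positions 53, 54, 58 and 61. They are the gene with the most iCLIP counts (tRNA-Leu-CAA-1-2, chr6:28908909-28908926, plus strand), initiator methionine tRNA (tRNA-iMet-CAT-1-1, chr1:153643772-153643789, plus strand), a threonine tRNA higher in miCLIP (tRNA-Thr-AGT-1-1, chr17:8090526-8090543, plus strand), tryptophan (tRNA-Trp-CCA-3-3, chr17:8089722-8089739, plus strand) and glutamine (tRNA-Gln-CTG-1-4, chr15:66161408-66161425, minus strand).
tRNA-Leu-CAA-1-2: cgtggGTtcgAatCccac
tRNA-iMet-CAT-1-1: cgatgGAtcgAaaCcatc
tRNA-Thr-AGT-1-1: cctggGTtcgAatCccag
tRNA-Trp-CCA-3-3: tgcgtGTtcaAatCacgt
tRNA-Gln-CTG-1-4: tccgaGTtcaAatCtcgg
The initiator tRNA alone among them had A at position 54, and all had G at 53, A at 58 and C at 61. The sequence search required A at 58 and T or A at 54. Methionine genes with A at 54 were counted as initiator genes, so these bases were set by the search. The T arm of tRNA-Leu-CAG-2-2, another leucine tRNA, had the same 18 bases as that of tRNA-Leu-CAA-1-2.

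The share of counts on tRNA overlapped between the methods. Of all counts, 47.8%, 65.4% and 58.8% of the iCLIP libraries and 64.3% and 67.2% of the miCLIP libraries lay on tRNA genes (57.3% ± 8.86, SD, n = 3, against 65.8% ± 2.01, SD, n = 2). Exact two-sided permutation of the libraries gave p = 0.3 for this difference. With 3 libraries against 2 no such test can give a p below 0.1. Shares whose groups did not overlap gave a permutation p from 0.1, as for leucine tRNAs, to 0.3, with 0.2 for mRNA. The groups did not overlap in 35 of the 48 shares computed (72.9%), and the smallest p adjusted over these 48 by the Benjamini-Hochberg method was 0.209.

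Which tRNAs were counted differed far more. Leucine isoacceptors (tRNAs for leucine that differ in the anticodon) made up 52.7%, 42.3% and 41.2% of the tRNA counts of iCLIP and 5.44% and 6.29% of those of miCLIP (45.4% ± 6.32, n = 3, against 5.87% ± 0.597, n = 2, SD). Initiator methionine tRNA, which starts protein synthesis, made up 6.15%, 6.95% and 8.21% in iCLIP and 0.275% and 0.253% in miCLIP. In both cases every iCLIP library was above both miCLIP libraries. All isoacceptors other than leucine, serine and initiator methionine together held 36.6% to 46.4% of the tRNA counts in iCLIP and 87.6% to 87.7% in miCLIP. Serine tRNAs, which like leucine tRNAs carry a long variable arm, held 4.25% to 4.90% in iCLIP and 5.85% to 6.61% in miCLIP.

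Counts per isoacceptor and RNA class, scaled to the library total, were tested with limma voom and the Benjamini-Hochberg method. Of 63 rows tested, 45 were called at an adjusted p under 0.05 (71.4%), 32 of them higher in miCLIP (50.8%) and 13 in iCLIP (20.6%), and the median log2 difference of miCLIP from iCLIP was 0.85. With median-of-ratios size factors in place of library totals, the median fell by 0.78 to 0.07 and 18 rows were called in each direction. A difference of an isoacceptor is thus relative to that shift, while the direction of each isoacceptor named in the next 2 paragraphs was the same with both scalings. Leaving out iCLIP replicate 3, miCLIP replicate 1 or miCLIP replicate 2 left 21 rows higher in miCLIP in each case. Among the 47 isoacceptors with a known anticodon, 29 were higher in miCLIP and 5 in iCLIP, with a median of 1.15.

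The 5 isoacceptors higher in iCLIP were initiator methionine and 4 of the 5 for leucine. tRNA-iMet-CAT held 29429, 45449 and 48272 CPM in the iCLIP libraries and 1768 and 1702 CPM in the miCLIP libraries, 23.7-fold higher in iCLIP (log2 difference −4.61 ± 0.32, SE, limma voom adjusted p = 3.43e-11). tRNA-Leu-CAA held 153220, 162760 and 140250 CPM against 12633 and 18355 CPM and was the most counted isoacceptor of iCLIP, 9.82-fold above miCLIP (log2 −3.38 ± 0.40, SE). tRNA-Leu-CAG was 8.26-fold higher, tRNA-Leu-TAG 5.33-fold and tRNA-Leu-TAA 2.70-fold, a call lost without iCLIP replicate 3 (log2 −1.22). The last leucine isoacceptor, tRNA-Leu-AAG, held 5622, 10767 and 6855 CPM in iCLIP and 5971 and 5258 CPM in miCLIP, values that overlapped (log2 −0.36 ± 0.35, SE, limma voom adjusted p = 0.372). Whether it differed from the other leucine isoacceptors was not tested.

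The 5 largest folds toward miCLIP were of tRNAs for threonine, serine, histidine, arginine and tryptophan. tRNA-Thr-AGT held 860, 1252 and 857 CPM in iCLIP and 27598 and 25085 CPM in miCLIP, a 26.6-fold difference (log2 4.72 ± 0.54, SE, limma voom adjusted p = 1.91e-07). tRNA-His-GTG was 11.7-fold, tRNA-Arg-TCT 9.32-fold and tRNA-Trp-CCA 8.72-fold higher in miCLIP. tRNA-Ser-ACT was 12.5-fold higher, but its iCLIP libraries held only 1, 0 and 1 counts. Every miCLIP library was above every iCLIP library for these 5, and 49 of the 63 rows showed no overlap in one direction or the other (77.8%).

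Single genes of the leucine, initiator methionine and threonine families mostly showed the same division. The feature table, which tested 756 tRNA genes, other genes and regions with a mean of at least 100 CPM, called 200 higher in miCLIP (26.5%) and 275 in iCLIP (36.4%). These counts depended on the test of low values, as limma on log2(CPM + 500) called 169 and 57, a filter of at least 10 counts in 2 or more libraries, chosen after seeing the data, gave 226 and 48, and without miCLIP replicate 2 the numbers were 130 and 60. With median-of-ratios size factors, 127 and 217 of 544 features were called. Of the 25 leucine tRNA genes tested, 15 were higher in iCLIP and 2 in miCLIP, with a median log2 difference of −1.68. Of 20 threonine tRNA genes, 18 were higher in miCLIP and none in iCLIP, with a median of 2.85. Over all 336 tRNA genes tested, 168 were higher in miCLIP and 40 in iCLIP, with a median of 1.31. All 8 initiator methionine genes were higher in iCLIP.

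The most counted tRNA gene of iCLIP was tRNA-Leu-CAA-1-2, an intron-containing gene in the tRNA cluster of chromosome 6. It held 794, 389 and 342 counts in iCLIP and 65 and 226 in miCLIP, or 45548, 48704 and 48843 CPM against 1666 and 2161 CPM (24.9-fold, log2 −4.57 ± 0.25, SE, limma voom adjusted p = 3.12e-65). The next 4 genes of iCLIP were also for leucine and also higher in iCLIP: tRNA-Leu-CAA-1-1 by 6.69-fold, tRNA-Leu-CAG-2-2 by 19.3-fold, tRNA-Leu-CAA-2-1 by 23.3-fold and tRNA-Leu-CAA-3-1 by 5.81-fold. The most counted gene of miCLIP was tRNA-Tyr-GTA-1-1, also with an intron, with 20, 32 and 15 counts in iCLIP and 750 and 2312 in miCLIP (8.50-fold higher in CPM). Its isoacceptor as a whole was not called (1.55-fold, limma voom adjusted p = 0.229). Of 12 tyrosine genes tested, 5 were higher in miCLIP, 1 was higher in iCLIP and 6 were not called. tRNA-Thr-AGT-1-1, whose T arm is shown above, held 8, 4 and 4 counts against 621 and 1349, 28.2-fold higher in CPM. The other 3 of the 5 highest genes of miCLIP, tRNA-Ile-TAT-2-3, tRNA-Cys-GCA-2-2 and tRNA-Thr-TGT-5-1, were higher there by 2.40-fold, 13.98-fold and 5.01-fold.

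The 5 largest folds toward iCLIP were all of initiator methionine genes and the 5 toward miCLIP of threonine, phenylalanine and tryptophan genes. The gene tRNA-iMet-CAT chr17:80452597(-) held 51, 39 and 34 counts in iCLIP and none in miCLIP, at least 202-fold higher in iCLIP when the miCLIP group is set to its floor of 3 counts. The gene tRNA-iMet-CAT chr6:26286754(+) held 41, 27 and 26 counts against none, at least 151-fold higher. tRNA-iMet-CAT-1-1, which held most of the initiator counts, had 296, 205 and 176 counts in iCLIP and 64 and 167 in miCLIP (13.96-fold higher in CPM). The other 7 initiator genes together had 537 counts in iCLIP and 16 in miCLIP. In the other direction, tRNA-Thr-AGT chr6:28693795(+) held no count in iCLIP and 119 and 328 in miCLIP, at least 33.4-fold higher with the iCLIP group at its floor. The gene tRNA-Phe-GAA chr6:28758499(-), for phenylalanine, held 0, 1 and 0 counts against 154 and 338, a ratio of pooled CPM of 111 with a 95% counting interval of 19.8 to 4395.

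Within the tRNA, the methods differed in the side of the T loop that held the counts. Positions 53 and 54 together held 23.1%, 23.9% and 11.6% of the tRNA counts in iCLIP and 48.2% and 44.2% in miCLIP (19.5% ± 6.91, n = 3, against 46.2% ± 2.87, n = 2, SD, exact permutation p = 0.1). Position 53, the base before the uridine that is methylated, carried this difference, with 4.65%, 6.37% and 2.91% in iCLIP and 28.1% and 34.3% in miCLIP. Position 54 itself overlapped between the methods, at 18.5%, 17.5% and 8.65% against 20.1% and 9.89%. By the reading of the study given above, a miCLIP count at 53 can stand for the uridine at 54. The same counted position can thus mean different bases in iCLIP and miCLIP. Position 58 held 32.7%, 28.5% and 20.2% in iCLIP and 8.74% and 8.56% in miCLIP. Position 61, in the 3′ strand of the T stem, held 9.33%, 9.59% and 8.30% in iCLIP and 0.0690% and 0.0793% in miCLIP, a share that hardly varied within either method. All counts from position 60 to 73 came to 15.7% to 17.0% in iCLIP and 0.401% to 0.743% in miCLIP.

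In limma voom on counts per position, scaled to the tRNA count of the library, 20 of 68 positions were higher in miCLIP (29.4%) and 15 in iCLIP (22.1%), and the median log2 difference was 0.30. Position 53 was 6.72-fold higher in miCLIP (log2 2.82 ± 0.48, SE, adjusted p = 2.11e-07), and position 61 was 122-fold higher in iCLIP (log2 −6.89 ± 0.59, SE, adjusted p = 7.01e-23). These folds are over all tRNA counts, whose isoacceptors differed between the methods. Position 58 was 3.14-fold higher in iCLIP (log2 −1.63 ± 0.47, SE), and position 54 was not called (log2 −0.01 ± 0.48, SE, adjusted p = 0.985). All positions called from 53 backwards to 24 were higher in miCLIP except position 48, whose call (log2 −1.16, adjusted p = 0.0348) was lost under 8 alternatives, among them without iCLIP replicate 2 (−1.003), miCLIP replicate 1 (−1.22) or miCLIP replicate 2 (−1.12), and all called from 56 to 67 were higher in iCLIP. Position 52 was called higher in miCLIP although its groups overlapped and its mean shares had a ratio of 1.00, and groups did not overlap at 39 of the 68 positions (57.4%).

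A second region of difference was the anticodon arm, the stem and loop that reads the codon. Positions 27 to 43 held 1.88%, 2.98% and 3.62% of the tRNA counts in iCLIP and 13.7% and 16.4% in miCLIP. The 3′ strand of its stem, positions 39 to 43, held 0.341%, 0.349% and 0.539% against 5.02% and 5.71%. Position 40 was 17.1-fold higher in miCLIP (log2 5.06 ± 0.88, SE, limma voom adjusted p = 3.02e-07) and position 37, next to the anticodon, 6.32-fold (log2 2.75 ± 0.57, SE). The tRNA leader overlapped between the methods, at 2.13%, 2.90% and 16.5% against 3.63% and 8.46%, where iCLIP replicate 3 stood apart from the other 2 iCLIP libraries. Without it the leader was called higher in miCLIP (log2 1.22, limma voom). That replicate was also the lowest of iCLIP at positions 54 and 58.

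Introns, which are removed from the few tRNAs that have them before the tRNA is mature, held a larger part of the counts in miCLIP. On the 53 genes with an intron, the intron held 1.18%, 2.57% and 7.61% of the counts in iCLIP and 11.9% and 17.4% in miCLIP (3.78% ± 3.38, n = 3, against 14.6% ± 3.88, n = 2, SD, exact permutation p = 0.1). In tRNA-Leu-CAA, intron counts were 24, 30 and 91 in iCLIP, or 0.899%, 2.31% and 9.27%, and 81 and 471 in miCLIP, or 16.4% and 24.5%. In tRNA-Tyr-GTA they were 2.97%, 3.40% and 2.84% against 10.97% and 15.1%. As a share of all tRNA counts, the intron overlapped between the methods, and its call in the position table (log2 1.26, limma voom adjusted p = 0.0348) was lost under several alternatives, among them without iCLIP replicate 1 (log2 0.59), iCLIP replicate 2 (1.39) or miCLIP replicate 2 (0.96).

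The difference in position was not limited to the leucine tRNAs. Of 45 isoacceptors with at least 20 pooled counts in each method, the most counted position in iCLIP was 58 in 39, 54 in 6 and 53 in none. In miCLIP it was 53 in 42 and 58 in 3, those of tRNA-iMet-CAT, tRNA-Gln-CTG and tRNA-Gln-TTG. The ratio of counts at 53 and 54 to all others was higher in miCLIP in 26 of 40 isoacceptors tested with limma (65%) and in none lower (0%), at an adjusted p under 0.05. At an unadjusted p under 0.05 these numbers were 28 and 0. The median log2 difference was 2.27, and groups did not overlap in 37 of the 40 (92.5%). The number called was 4 without miCLIP replicate 1 and 8 without miCLIP replicate 2. It was 0 with the replicate number as a block, where 21 isoacceptors had an unadjusted p under 0.05.

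The largest log ratio, with a pseudocount of 0.5, was that of tRNA-Gln-CTG, with 2.82%, 0% and 0% of its counts at 53 and 54 in iCLIP and 37.9% and 37.4% in miCLIP (log2 5.12 ± 0.67, SE, limma adjusted p = 0.0018). The 0 counts were of 46 and 36, which allow shares of up to 6.52% and 8.33%. As differences of shares, others were larger. In tRNA-Gly-TCC, for glycine, the shares were 13.2%, 27.1% and 10.0% in iCLIP and 68.3% and 64.8% in miCLIP. tRNA-Leu-CAG had 27.5%, 21.6% and 11.96% against 56.9% and 61.1% (log2 2.57 ± 0.62, SE, limma adjusted p = 0.0115). tRNA-Leu-CAA, by contrast, had 26.96%, 21% and 11.3% against 29.0% and 29.8% and was not called (log2 0.84 ± 0.62, SE, limma adjusted p = 0.235). Whether these 2 leucine isoacceptors differed from each other was not tested.

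Position 61 is given here by isoacceptor, as it was the position with the largest fold toward iCLIP. Over all tRNA it held 765, 495 and 339 counts in iCLIP and 17 and 55 in miCLIP. In tRNA-Leu-CAA, position 61 held 393, 237 and 127 counts in iCLIP (14.7%, 18.2% and 12.9% of the isoacceptor) and 0 of 2413 counts in miCLIP, which allows a share of up to 0.124%. In tRNA-Leu-CAG it held 150, 85 and 54 counts against 0 of 1026, which allows up to 0.292%. These leucine isoacceptors thus supplied much of the iCLIP counts at position 61. The fold over all tRNA therefore also depends on their larger share of the iCLIP counts. tRNA-Tyr-GTA, whose most counted gene was higher in miCLIP, held 8.92%, 9.06% and 6.03% of its iCLIP counts there, against 0.358% and 0.136% in miCLIP. In tRNA-iMet-CAT, position 61 held 1, 0 and 0 counts in iCLIP.

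The positions of initiator methionine tRNA, with its adenosine at 54, are given apart. In tRNA-iMet-CAT, position 58 held 48.3%, 42.975% and 29.6% of the counts in iCLIP and 69.6% and 71.3% in miCLIP, the direction opposite to that of tRNA as a whole. Position 48, before the T stem, held 47, 64 and 36 counts in iCLIP and 0 of 247 in miCLIP, which allows up to 1.21%. Position 53 held 0 of 1214 counts in iCLIP and 1 count in miCLIP. Position 54, an adenosine here, held 1.36%, 7.16% and 2.66% in iCLIP and 10.1% and 15.7% in miCLIP, on 7 and 28 counts in the latter. In tRNA-Thr-AGT, by comparison, position 53 held 25.4% and 32.3% of the miCLIP counts, and its 3 iCLIP libraries had only 15, 10 and 6 counts in all.

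Outside the tRNA genes, messenger RNA was the class with more counts in miCLIP and several small RNAs had more in iCLIP. In the table of isoacceptors and classes, mRNA held 25126, 34681 and 90831 CPM in iCLIP and 138040 and 151820 CPM in miCLIP (log2 1.61 ± 0.55, SE, limma voom adjusted p = 0.0135). With median-of-ratios size factors the difference of mRNA was 0.81 and was not called, nor was it without iCLIP replicate 1, iCLIP replicate 2 or miCLIP replicate 2. Spliceosomal snRNA, which acts in the removal of introns, was higher in iCLIP (log2 −4.04 ± 0.53, SE), as were mitochondrial transcripts (−3.48 ± 0.55) and vault RNAs (−2.72 ± 0.44). The class of other RNA polymerase III transcripts, made up largely of Y RNA annotations, was also higher in iCLIP (−1.98 ± 0.32). Sequences resembling tRNA outside the tRNA genes overlapped between the methods, at 9.39%, 5.31% and 1.71% of all counts against 5.75% and 4.66%.

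The mRNA most counted in miCLIP was that of TRMT2A, of which the transfected construct is a copy. TRMT2A held 1, 0 and 0 counts in iCLIP and 573 and 1821 in miCLIP, or 14683 and 17408 CPM, a ratio of pooled CPM of 540 with a 95% counting interval of 96.9 to 21353 (log2 7.73 ± 1.01, SE, limma voom adjusted p = 1.14e-12). Of the pooled miCLIP counts on the gene, 96.2% lay in coding sequence, 1.34% in untranslated exons and 2.49% in introns. Leaving the gene out of the totals, tRNA held 65.3% and 68.4% of the miCLIP counts, and 32 and 13 rows of the isoacceptor table were called as before. The intron of ERCC1, a DNA repair gene, held no count in iCLIP and 89 and 411 in miCLIP, at least 33.6-fold higher with the iCLIP group at its floor.

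The transcript most counted outside tRNA in iCLIP was HIST1H4B, which encodes the histone H4. HIST1H4B (chr6:26027149-26027432, minus strand, the span of its counts) held 109, 110 and 157 counts in iCLIP and 0 and 4 in miCLIP, or 6253, 13772 and 22422 CPM against 0 and 38.2 CPM. The ratio of pooled CPM of miCLIP to iCLIP was 0.0024 with a 95% counting interval of 0.000651 to 0.0062 (log2 −8.38 ± 0.93, SE, limma voom adjusted p = 5.85e-17). The 3 iCLIP libraries all lay far above both miCLIP libraries, although they differed among themselves. All 28 histone genes with a count together held 117, 122 and 168 counts in iCLIP and 21 and 55 in miCLIP, so that the iCLIP counts of the list were nearly all of HIST1H4B.

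Lists of small RNAs followed. The 3 vault RNAs, components of the vault particle, together held 5106, 11268 and 14282 CPM in iCLIP and 974 and 1472 CPM in miCLIP. VTRNA1-1 held 48, 27 and 42 counts in iCLIP and 6 and 19 in miCLIP (log2 −4.32 ± 0.63, SE). The 40 spliceosomal snRNA genes with a count together held 4475, 7137 and 12711 CPM in iCLIP and 692 and 315 CPM in miCLIP, among them RNU2-2P, a U2 snRNA gene, with 33, 28 and 53 counts against 4 and 13 (38.1-fold in CPM). The most counted members all had RNU2 names ending in P, such as RNU2-59P with 14, 8 and 15 counts against 4 and 1. Whether the snRNA members are genes or copies of genes was not examined. The 219 other RNA polymerase III transcripts held 17898, 12020 and 11997 CPM against 3972 and 3470 CPM. The 25 mitochondrial features, genes and the positions without a gene, held 2926, 4257 and 8997 CPM against 308 and 440 CPM. In these lists every iCLIP library was above both miCLIP libraries. The RNA polymerase III list consisted largely of separate Y RNA annotations, and whether these are genes or copies of genes was not examined. Of its members with other names, RN7SK held 4, 3 and 1 counts against 11 and 26 and was not called. RNY1 (5, 2 and 10 against 1 and 9) and RMRP (2, 4 and 6 against 3 and 6) were called higher in iCLIP. So were RNA5S9 (8, 3 and 3), 5S_rRNA (6, 0 and 5) and RNU6ATAC (3, 0 and 4), each without a count in miCLIP. All these calls rest on few counts. The 50 ribosomal protein genes overlapped, at 402, 876 and 3428 CPM against 743 and 765 CPM, and the 17 snoRNAs held at most 10 counts in a library. Single members are not tallied, since at this depth a gene could pass the filter on a few iCLIP counts that would not have sufficed in miCLIP.

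The sequences around the most counted positions of these RNAs are shown to set them beside the T arms, with the counted base in capitals at the middle of 21 bases, in GRCh37. They are HIST1H4B (chr6:26027208-26027228, minus strand), VTRNA1-1 (chr5:140090858-140090878, plus strand) and RNU2-2P (chr11:62609150-62609170, minus strand), all most counted in iCLIP.
HIST1H4B: atggatgtggTttacgcgctc
VTRNA1-1: ccgggctggcTttagctcagc
RNU2-2P: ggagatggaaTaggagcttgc
The counted base was T in all 3. Over all counts outside tRNA and tRNA-like sequence, T was the counted base in 40.4%, 46.8% and 57.5% of iCLIP and 29.3% and 25.2% of miCLIP. The base that followed the counted position was T in 40.02%, 49.5% and 48.8% against 58.05% and 59.1%.

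The miCLIP counts outside tRNA often stood directly before the letters with which the T loop begins. The motif TTCNA (N being any base) was read on the sense strand in the 5 bases after the counted position, which in most tRNAs with the count at position 53 are positions 54 to 58. Outside tRNA and tRNA-like sequence, it followed 0.554%, 0.867% and 1.26% of the iCLIP counts and 11.8% and 11.1% of the miCLIP counts (0.893% ± 0.353, n = 3, against 11.5% ± 0.519, n = 2, SD, exact permutation p = 0.1). Read 20 nt further downstream, the motif was at 0.540%, 1.08% and 0.518% of the iCLIP counts and 0.463% and 0.432% of the miCLIP counts, which gives the level in the same transcripts. Within mRNA, it followed 0.228%, 1.08% and 0.786% against 6.44% and 7.59%. In tRNA itself it followed 4.73%, 6.40% and 3.09% against 28.3% and 34.4%. These values restate the share at position 53, since the sequence search required this motif, with T or A as its first base, at positions 54 to 58.

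The miCLIP peaks outside tRNA showed the same. Positions with 5 or more pooled counts and no higher position within 3 nt were taken as peaks. Of 473 miCLIP peaks outside tRNA and tRNA-like sequence, 104 stood before the motif (21.99%, exact 95% interval 18.3% to 25.995%), against 1 of 179 iCLIP peaks (0.559%, 0.0140% to 3.07%). Read 20 nt downstream it followed 1 of the 473 (0.211%). In the transcript of TRMT2A itself the motif followed 1.05% and 3.08% of the miCLIP counts. Peaks before the motif are shown with it in capitals, read on the strand of the count in GRCh37. The first lies in the stretch annotated to an intron of ERCC1 (chr19:45981870-45981890, minus strand), which resembles a T arm and may belong to a missed tRNA gene. The others lie in PTK6, which encodes a tyrosine kinase (chr20:62168604-62168624, minus strand), in the vault RNA gene VTRNA1-2 (chr5:140098524-140098544, plus strand) and in a region without a gene on chromosome 22 (chr22:24135220-24135240, minus strand).
ERCC1 intron: cgacagagtggTTCAAttcca
PTK6: gcctctgggacTTCAAgtccc
VTRNA1-2: tcagcggttacTTCGAgtaca
Region on chromosome 22: caaacacgaatTTCTAtcccc
Both methods counted VTRNA1-2. At its position before the motif, VTRNA1-2 held 1, 0 and 4 counts in iCLIP and 6 and 44 in miCLIP, and the next base downstream held 7, 4 and 7 counts in iCLIP and 3 and 2 in miCLIP. The most counted position of iCLIP, 12 nt downstream, held 8, 12 and 5 counts in iCLIP and none in miCLIP. Over the whole of VTRNA1-2, iCLIP was the higher method (38, 60 and 51 counts against 31 and 133, log2 −1.90, limma voom adjusted p = 1.49e-05).

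**Figure D1:**
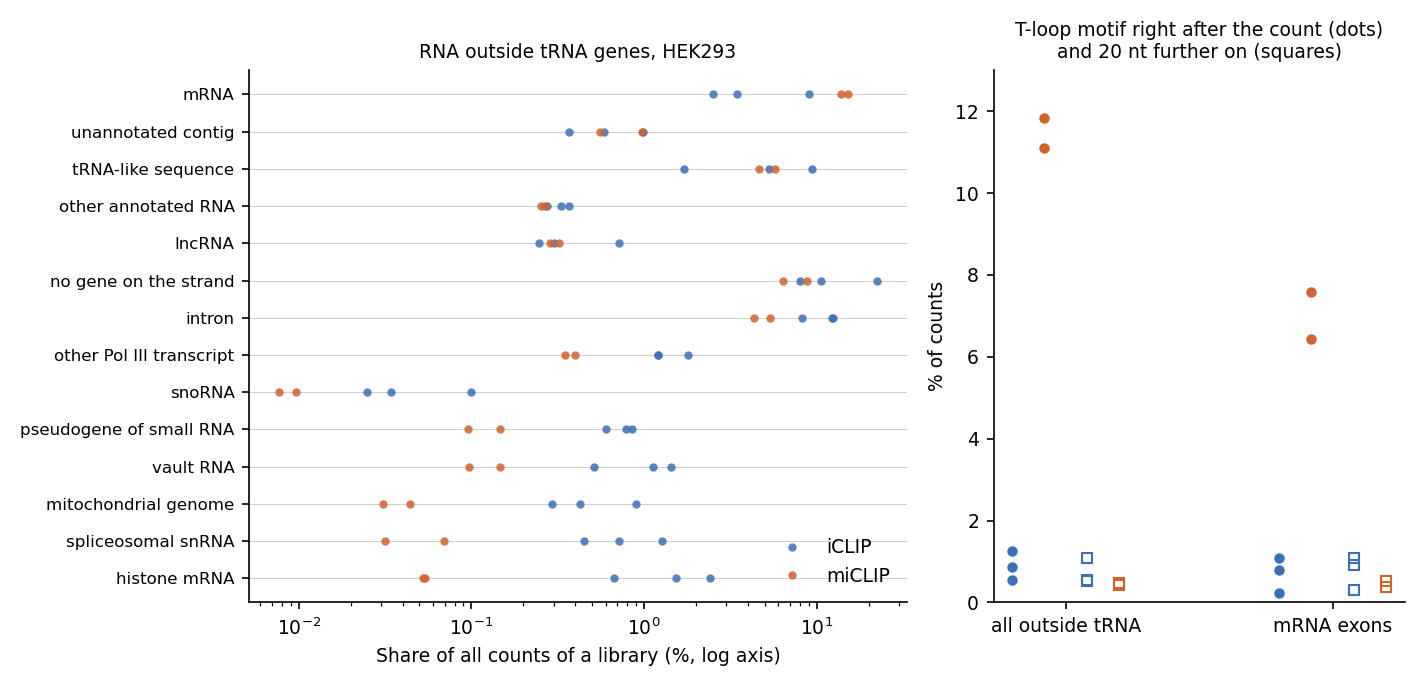
RNAs outside the tRNA genes, 1 point per library for iCLIP (3 libraries) and miCLIP (2 libraries). Left, counts of RNAs relative to the library total on a log axis, where libraries without a count are not drawn. Right, share of counts (%) directly followed by the motif TTCNA, with open squares for the motif 20 nt downstream. Outside tRNA the motif followed 11.8% and 11.1% of the miCLIP counts and at most 1.26% of the iCLIP counts.

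Shared sites were few outside tRNA. Of 708 iCLIP peaks, 354 lay within 1 nt of a miCLIP peak on the same strand (50.0%, exact 95% interval 46.3% to 53.7%), and of 2043 miCLIP peaks, 350 lay within 1 nt of an iCLIP peak (17.1%, 15.5% to 18.8%). On tRNA these shares were 67.4% and 21.99%, and outside it 22.8% and 8.54%. The methods differed in depth, and with miCLIP thinned to the total of the iCLIP libraries (32421 counts, mean of 20 draws) the shares were 33.8% and 30.5%.

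Values of the other libraries stand beside these, with no test between them. In 3 libraries of FICC-Seq from HEK293 cells, where 5-fluorouracil traps the endogenous enzyme without UV light or mutation, positions 53 and 54 held 70.6%, position 58 held 17.96% and position 61 held 0.122% of the tRNA counts on average. Leucine isoacceptors held 27.4% there, between the shares of iCLIP and miCLIP, and initiator methionine 0.0023%. The motif TTCNA followed 11.3% of the FICC-Seq counts outside tRNA. In 3 iCLIP libraries from HAP1 cells, a near-haploid human cell line, positions 53 and 54 held 21.2%, position 61 held 8.92%, leucine isoacceptors 43.3% and initiator methionine 4.23%, and the motif followed 1.96% of the counts outside tRNA.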

How the data were processed

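Counts of cDNAs per genomic position were used as the authors deposited them, whole numbers not scaled for depth and negative on the minus strand (absolute values here). Per the methods of the study, duplicates had been removed by random barcode with iCount, and reads mapped to hg19 with bowtie, keeping unique hits. The 5 random barcode bases give 1024 barcodes. Members and lists were chosen with earlier results of these data known. tRNA genes were found by sequence and genes named from an annotation mapped to GRCh37. Histone genes were listed by class, as this annotation uses newer symbols for most. tRNA-like sequence matched a mature tRNA over 18 bases with at most 2 mismatches.

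Tables of features (mean of at least 100 CPM), isoacceptors and positions were tested with limma 3.58.1 (voom, R 4.3.3), and log ratios of T-loop counts (pseudocount 0.5, at least 10 counts in each library) with limma, all adjusted by the Benjamini-Hochberg method. CPM was computed from library totals of 7002 to 104605. Shares were tested by exact permutation. The named RNAs were TRMT2A, HIST1H4B, the 5 highest of each method and the 5 largest folds in each direction among those called, for isoacceptors, tRNA genes and other RNAs. Regions without a gene that the rule named are not described further. RNAs named for small-RNA lists, the motif or T-loop shares were picked after their values were seen. Libraries of a method differed by more than sampling noise (chi-square per degree of freedom at least 2.16), so none was counted as a duplicate. The steps were tested on simulated data. The authors' peak lists were not used. Alternatives covered scaling, filters, pseudocount, collisions of barcodes, the replicate number as a block and each library left out in turn.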

Additional observations from a re-analysis of the deposited data

How the results depend on the processing

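None of the named results that were called, nor the differences of shares recomputed, changed direction under the alternatives run, while the direction of the other called features, isoacceptors and positions was not compared. The number of features higher in miCLIP (200) was 127 with median-of-ratios size factors, and between 130 and 205 when 1 library was left out. The number higher in iCLIP (275) was 103 with limma on log2(CPM + 100), 57 on log2(CPM + 500), 96 at a mean of at least 300 CPM and 16345 of 22880 with no filter, where a 0 in a small library stands for a higher CPM than in a large one. It was 60 to 295 when 1 library was left out (60 without miCLIP replicate 2) and 48 with at least 10 counts in 2 or more libraries, an alternative chosen after seeing the data. For isoacceptors and classes, 18 were higher in miCLIP with median-of-ratios size factors and 19 with leucine tRNAs left out (chosen after seeing the data), in place of 32, and 21 to 32 with 1 library left out. Of the 13 rows higher in iCLIP, 8 were not tRNA and 5 were isoacceptors. With the tRNA total as scale and tRNA rows only, 7 were called higher in iCLIP, to be set beside the 5. With 1 library left out, 11 to 14 of all rows were called higher in iCLIP. Where leaving out a library left miCLIP with 1, that library was assumed to vary like the others.

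The difference of position 58 was −18.5 percentage points and −25.9 with each isoacceptor weighted equally. Shared peaks came to 46.2% of iCLIP and 13.1% of miCLIP peaks at a minimum of 10 counts, to 33.8% and 30.5% with miCLIP thinned, and to 33.5% to 57.4% and 10.5% to 28.1% with 1 library left out. The T-loop ratio was called in 26 isoacceptors, and in 4 to 34 with 1 library left out. The cause of these changes was not tested. Of the named isoacceptors, classes and positions, calls were lost 18 times in the table of isoacceptors and classes and 15 times in that of positions, and gained 2 times in each, with mRNA, snoRNA, introns of genes, the tRNA intron and position 48 among those lost.

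Replicate numbers were shared by the methods, and deviations of same-numbered libraries correlated with r = 0.0193 and −0.0339. With 2 miCLIP libraries, whose deviations mirror each other, these values cannot show whether the numbers pair the libraries. With the replicate number as a block, 188 and 290 features, 30 and 14 isoacceptors and classes, and 19 and 13 positions were called higher in miCLIP and iCLIP, and 0 isoacceptors for the T-loop ratio. In the block, the differences of shares (in percentage points) were 9.16 for all tRNA, 22.7 at positions 53 and 54, −21.99 at position 58, −41.6 for leucine and −6.29 for initiator methionine. Depth limits most what can be said of iCLIP values under 92.5 CPM, the floor over its 3 libraries.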
